A study of Mus musculus with 8 samples.

Results

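The genes described here make, break down and carry retinoic acid (RA). They are Cyp26b1, Cyp26a1, Dhrs3, Rdh10, Aldh1a1, Aldh1a2, Aldh1a3, Crabp1 and Crabp2, 9 of the 20660 genes with a named probe on the array, and each was measured by 1 probe, found through the RefSeq accession in the scanner files. Expression was measured on 8 one-colour Agilent arrays of primary spheres, clusters of cells that form in culture from dissociated tissue. The source was the superior mesenteric ganglion, a sympathetic ganglion, of 3-week-old mice of the 129+Ter/SvJcl background, all hemizygous for TH-MYCN. This transgene places MYCN under the tyrosine hydroxylase promoter, which is active in sympathetic cells. Both groups carry it, and no group without it was analysed here. Cells of each ganglion were divided between RA (+) and RA (-) medium for 8 days, and 4 animals gave 1 array in each medium. The labels do not say whether the spheres were sorted, and the RA dose is not given in the sources used here.

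Retinol is oxidised reversibly to retinaldehyde, by Rdh10 among others, and Dhrs3 catalyses the return to retinol. Retinaldehyde dehydrogenases of the Aldh1a family then oxidise retinaldehyde irreversibly to RA, and Cyp26 enzymes hydroxylate RA, which leads to its removal. Crabp1 and Crabp2 bind RA in the cytoplasm, and RA acts through RAR and RXR receptors, which bind paired half-sites in DNA. Several genes of the pathway, among them Cyp26a1, Cyp26b1, Dhrs3 and Rarb, are well known to respond to RA, and in sympathetic neuroblasts and neuroblastoma cells RA is widely used as a differentiating agent.

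The promoter of Rarb carries the classical binding site of RAR-RXR pairs, 2 half-sites 5 bases apart (DR5), so the 250 bases before the annotated start are shown for the strongly changed members Cyp26b1 and Dhrs3, for Cyp26a1, which was well above background on none of these arrays, and for Rarb. The sequences are from RefSeq on GRCm38.p6, 5′ to 3′ on the strand of the gene, and capitals mark the half-sites of a DR5. Dhrs3 has 3 annotated starts, of which the most upstream is shown.
Cyp26b1, chr6:84593811-84594060, minus strand: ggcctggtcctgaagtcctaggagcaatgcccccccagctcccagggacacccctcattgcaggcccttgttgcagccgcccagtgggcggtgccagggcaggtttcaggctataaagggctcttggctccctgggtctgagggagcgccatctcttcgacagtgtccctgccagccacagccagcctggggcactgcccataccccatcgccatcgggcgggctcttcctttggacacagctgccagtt
Dhrs3, chr4:144892577-144892826, plus strand: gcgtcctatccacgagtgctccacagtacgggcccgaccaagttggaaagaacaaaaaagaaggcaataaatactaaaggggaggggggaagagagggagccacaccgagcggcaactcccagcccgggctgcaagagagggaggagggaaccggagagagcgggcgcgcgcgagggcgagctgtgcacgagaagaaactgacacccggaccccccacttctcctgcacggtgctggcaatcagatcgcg
Cyp26a1, chr19:37697558-37697807, plus strand: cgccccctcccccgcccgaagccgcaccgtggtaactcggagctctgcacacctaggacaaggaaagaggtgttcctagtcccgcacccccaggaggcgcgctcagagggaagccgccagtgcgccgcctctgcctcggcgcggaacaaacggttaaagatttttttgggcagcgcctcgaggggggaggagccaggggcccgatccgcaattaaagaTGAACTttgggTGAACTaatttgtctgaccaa
Rarb, chr14:16575477-16575726, minus strand: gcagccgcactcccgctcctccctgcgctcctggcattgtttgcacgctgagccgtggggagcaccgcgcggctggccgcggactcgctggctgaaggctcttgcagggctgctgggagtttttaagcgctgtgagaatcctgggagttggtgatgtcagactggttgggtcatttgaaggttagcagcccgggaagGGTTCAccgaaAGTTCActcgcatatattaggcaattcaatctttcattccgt

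Windows of 300 bases, 250 before and 50 after an annotated start, were searched on both strands for direct repeats, in any pairing, of the consensus half-site AGGTCA, of AGTTCA as found in known RA response elements, and of the forms of these strings that begin with another purine, GGGTCA for the former and GGTTCA for the latter. The spacings were 1 base (DR1), 2 bases (DR2) and 5 bases (DR5). RefSeq windows matched 6 of the 9 genes, and those of Rdh10, Aldh1a3 and Crabp2 were not among them. Cyp26a1 alone among the matched 6 held such a repeat, the DR5 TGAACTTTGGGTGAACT, which lies on the opposite strand from 32 to 16 bases before the start. Rarb held the DR5 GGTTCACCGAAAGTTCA from 53 to 37 bases before its start. Over all 32851 windows of the mouse annotation, 0.0974% held a DR5, 0.222% a DR1 and 0.268% a DR2. A match is a string of letters in this window, and its absence from the windows of Cyp26b1 and Dhrs3 covers only those bases.

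Levels are given as log2 of the processed intensity relative to the 75th percentile of the same array, so that a level of 0 equals that percentile. A change is RA (-) minus RA (+) on this log2 scale. Changes were tested with limma with the animal as a block, two-sided, over 13548 genes whose probe passed the scanner's flag for a signal well above background on 4 or more arrays of 8, and a gene was called at a Benjamini-Hochberg adjusted p under 0.05. Levels of different probes are not compared with each other. The 75th percentile of intensity was 228 to 306 in RA (+) and 235 to 295 in RA (-) arrays, no probe was saturated, and 48.5% to 55.3% of probes were well above background. The media differed widely: 64.3% of the tested genes were called, 28.2% lower and 36.1% higher in RA (-) medium, and 53.3% had arrays that did not overlap between the media. Over all tested genes the median change came to 0.07. The balance of the calls turned with the scaling: 3967 genes were higher and 4603 lower with scaling to the detected probes, and lower calls also outnumbered higher ones with quantile normalization of the processed signal and with normexp.

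Of the 9 genes, 7 were tested, 2 were called lower without RA (Cyp26b1 and Dhrs3), 3 were called higher (Aldh1a1, Aldh1a3 and Crabp2) and 2 were not called (Rdh10 and Crabp1). Cyp26a1 and Aldh1a2 were too dim to be tested. With 64.3% of all genes called, 5 of 7 is near the background share, and the median change of the 7, 0.22, lay close to the 0.07 of all genes. The fitted changes of Cyp26b1 and Dhrs3 were large: 1439 genes were called lower by at least 1, and 30 by at least 5, both among them. Fitted changes that end at background, as that of Cyp26b1 does, have no exact size, so no rank is read from them. The arrays did not overlap between the media for 3 of the 7, Cyp26b1, Dhrs3 and Aldh1a1, beside 53.3% of all tested genes. In bulk samples such as these spheres, fewer cells of a type and less RNA per cell cannot be told apart.

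**Figure D1:**
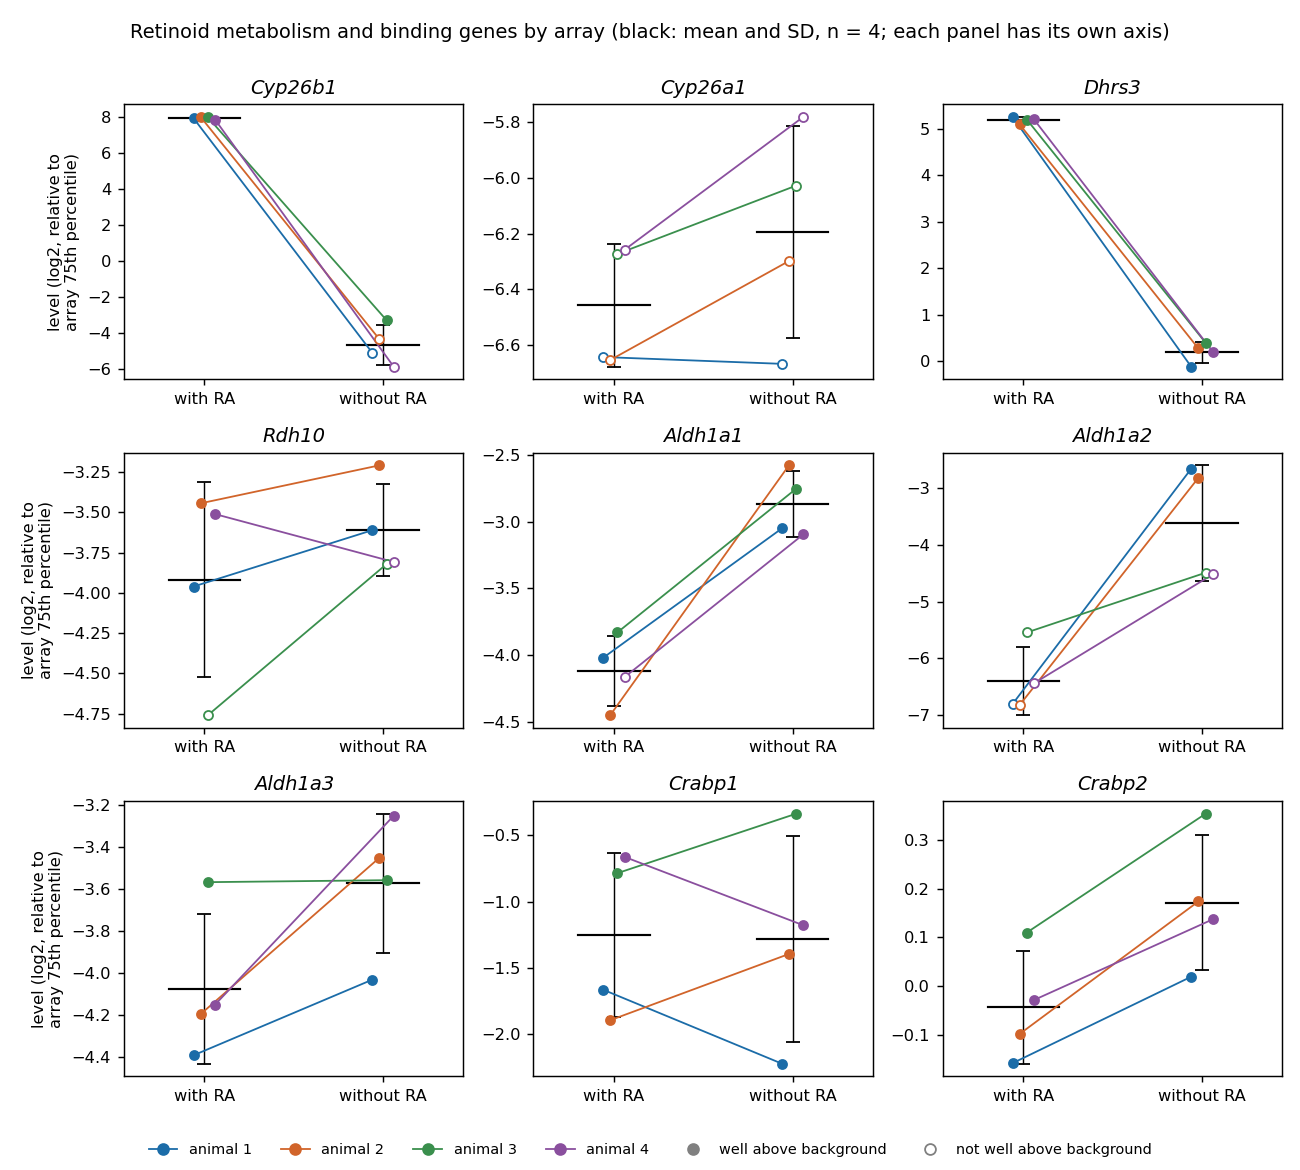
Level of each of the 9 genes (log2, with the array's 75th percentile as 0) with and without RA, with the arrays of 1 animal joined by a line, black bars for mean and SD (n = 4), and an open circle where the probe was not well above background. Cyp26b1 and Dhrs3 fell in all 4 animals, Aldh1a1 rose in all 4, and Cyp26a1 has open circles only; each panel has its own axis.

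Cyp26b1 (NM_175475), which hydroxylates RA and so limits its reach, fell from a bright signal to background or near it. Its level in RA (+) spheres was 7.93, 8.00, 7.99 and 7.86 in animals 1 to 4. Without RA it was −5.09, −4.34, −3.29 and −5.87 in the same animals. The RA (+) arrays lay close together and far above every RA (-) array, and the RA (-) arrays spread more widely, with animal 3 the highest. The mean level fell from 7.94 ± 0.06 to −4.65 ± 1.10 (SD, n = 4), a fitted change of −12.59. In processed intensity the probe read 57855 to 78306 with RA and 4.02 to 26.8 without it. Only the RA (-) array of animal 3 was well above background, so the size of the fall was measured on both sides in that animal alone, where it was −11.27, and the fitted change is no exact size. The 4 RA (+) arrays alone met the filter on dim probes, and most RA (-) values lie at background, so no p is given for the fall. With normexp background correction the change was −9.82, and it was called lower in 14 of 14 alternative analyses.

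Cyp26a1 (NM_007811), the paralog that also hydroxylates RA, gave no signal above background on any array. Its processed intensity was 2.95 to 3.90 with RA and 2.90 to 4.28 without it. The levels, −6.64, −6.66, −6.27 and −6.26 with RA and −6.67, −6.30, −6.03 and −5.78 without it, overlapped between the media. They carry no order, since a probe at background gives only an upper bound. The gene failed the filter on dim probes and has no call; with no such filter its change was 0.26 (SE 0.11; limma, Benjamini-Hochberg adjusted p = 0.102). Cyp26c1, the other gene of the subfamily, was well above background on no array either. Of the 3 Cyp26 genes, RNA was thus measured above background for Cyp26b1 alone.

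Dhrs3 (NM_011303), the reductase that returns retinaldehyde to retinol, was the second member that fell, and it was well above background on all 8 arrays. In animals 1 to 4 its level was 5.25, 5.09, 5.20 and 5.20 with RA. Without RA the levels were −0.12, 0.27, 0.39 and 0.20. The groups were far apart, each animal fell, and animal 1 had the lowest RA (-) value. The mean fell from 5.19 ± 0.07 to 0.19 ± 0.22 (SD, n = 4), which is 32.0-fold lower without RA (change −5.00, SE 0.12, 95% interval −5.29 to −4.71; limma, Benjamini-Hochberg adjusted p = 2.35e-05). The changes of the 4 animals were −5.38, −4.82, −4.81 and −5.00. In processed intensity, 8384 to 11522 with RA stood against 271 to 343 without it. Over 14 alternative analyses the change ranged from −5.18 to −4.82.

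The 3 tested genes whose level followed that of Dhrs3 most closely over the 8 arrays were Nckap1l, a subunit of the actin-regulating WAVE complex in blood cells, Rhoc, a small GTPase, and Fos, an immediate early transcription factor. Pearson's r over the 8 arrays was 0.999 for Nckap1l, 0.999 for Rhoc and 0.998 for Fos, and 118 genes had an r above 0.99. Such values describe genes that separate the media cleanly, since the 8 points form 2 clusters. The changes were −2.71 for Rhoc and −3.12 for Fos, and that of Nckap1l has no exact size, as its probe read at background on every RA (-) array.

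Rdh10 (NM_133832), which oxidises retinol to retinaldehyde, was dim and did not pass the test. Its level was −3.96, −3.44, −4.76 and −3.51 with RA and −3.61, −3.21, −3.82 and −3.81 without it. The groups overlapped, and 3 of 4 animals were higher without RA. The probe was well above background on 3 RA (+) and 2 RA (-) arrays, at an intensity of 8.43 to 28.1 over all 8. The change was 0.31 (SE 0.20, 95% interval −0.18 to 0.79; limma, Benjamini-Hochberg adjusted p = 0.215), so the interval covers both a small fall and a rise of up to 0.79.

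Aldh1a1, Aldh1a2 and Aldh1a3, which carry out the irreversible step to RA, all gave dim signals on these arrays, and of the 2 that could be tested Aldh1a1 had the larger fitted rise. Aldh1a1 (NM_013467) had levels of −4.02, −4.45, −3.83 and −4.16 with RA in animals 1 to 4. Without RA it had −3.05, −2.58, −2.75 and −3.10. Every RA (-) array lay above every RA (+) array, and animal 2 changed most. The gene was 2.37-fold higher without RA, from −4.12 ± 0.26 to −2.87 ± 0.25 (SD, n = 4; change 1.25, SE 0.17, 95% interval 0.84 to 1.66; limma, Benjamini-Hochberg adjusted p = 0.00139). The probe was well above background on 3 of 4 RA (+) and on 4 of 4 RA (-) arrays. It read 14.0 to 18.6 with RA and 27.5 to 40.8 without it, next to a median background of 26 to 29 that had already been subtracted. With normexp, which adds a fixed offset to every signal, the change was 0.36 and still called (adjusted p = 0.00179).

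Aldh1a2 (NM_009022), the main RA-producing enzyme of many embryonic tissues, was well above background on 0 of 4 RA (+) arrays and on 2 of 4 RA (-) arrays. With RA its level was −6.81, −6.82, −5.54 and −6.44. Without RA it was −2.66, −2.82, −4.49 and −4.52, and the arrays of animals 1 and 2 were the measured ones. The groups did not overlap, but the RA (+) values and those of animals 3 and 4 without RA lie at background, so the sizes of the animals' rises were not measured. In intensity the RA (-) arrays read 46.7, 34.6, 11.6 and 10.2. Against the lowest signal of any probe well above background, the RA (-) mean of Aldh1a2 was 3.42-fold higher. That mean covers all 4 RA (-) arrays, 2 of them not well above background. The lowest signal of other probes is no limit for this one, so 3.42-fold is no certain minimum. Aldh1a2 failed the filter on dim probes and so has no adjusted p in the fit. With no such filter its fitted change was 2.78. Most values behind that fit lie at background, so no p is given for it.

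Mesothelial cells are known to express Aldh1a2, and the mesothelial marker Msln was likewise well above background on only 2 arrays, both RA (-). Those were the arrays of animals 2 and 3, where Msln had levels of −2.29 and −1.28, against −5.34 in animal 1, the animal with the highest Aldh1a2. The other 3 mesothelial markers on the list, Upk3b, Wt1 and Krt19, were well above background on no array. The summed level of the 4 markers, with the 75th percentile of each array as 1, was 0.04 to 0.07 with RA and 0.06, 0.24, 0.45 and 0.10 without it in animals 1 to 4. The part of such cells in the Aldh1a2 signal was not tested.

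Aldh1a3 (NM_053080), the third enzyme of this step, was well above background on all 8 arrays and was called higher by a small margin. Its level was −4.39, −4.20, −3.57 and −4.15 with RA and −4.03, −3.45, −3.56 and −3.25 without it. The groups overlapped, since animal 3 had nearly the same value in both media. The mean rose from −4.08 ± 0.35 to −3.57 ± 0.33 (SD, n = 4), a change of 0.50 (SE 0.16, 95% interval 0.11 to 0.90; limma, Benjamini-Hochberg adjusted p = 0.0345). The animals' changes were 0.36, 0.74, 0.01 and 0.90. The call was lost in 6 of 14 alternative analyses, among them the fit without the animal block (adjusted p = 0.0647) and the fits without replicate 1, 2 or 4 (adjusted p = 0.0604, 0.120 and 0.113).

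Aldh1a1 rose more than Aldh1a3 by 0.74 ± 0.45 (SD, n = 4 animals), a difference in change rather than in level. An exact two-sided sign-flip permutation test over the 4 animals gave p = 0.13, which is the smallest p that 4 animals allow, and p = 0.25 after Benjamini-Hochberg adjustment over the 2 pairs of paralogs compared. The design therefore cannot call this difference. The pairs that include Cyp26a1 or Aldh1a2 entered only with no filter on dim probes, where many values lie at background and the differences have no exact size. None of the 5 pairs then passed the same exact permutation test, with adjusted p of 0.21 at the lowest.

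The binding proteins changed little. Crabp1 (NM_013496), which binds RA in the cytoplasm and is linked to its breakdown, had levels of −1.67, −1.90, −0.79 and −0.66 with RA and −2.23, −1.40, −0.34 and −1.18 without it. The groups overlapped throughout, 2 of 4 animals were higher without RA, and the spread between animals was wider than the mean shift between the media. Its change was −0.03 (SE 0.22, 95% interval −0.58 to 0.52; limma, Benjamini-Hochberg adjusted p = 0.910).

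Crabp2 (NM_007759), which carries RA to the nuclear receptors, had levels of −0.16, −0.10, 0.11 and −0.03 with RA and 0.02, 0.17, 0.35 and 0.14 without it. Each animal was higher without RA, yet the groups overlapped because animal 3 was the highest in both media. The mean rose from −0.04 ± 0.12 to 0.17 ± 0.14 (SD, n = 4; change 0.22, SE 0.07, 95% interval 0.05 to 0.38; limma, Benjamini-Hochberg adjusted p = 0.0331). The call was lost in 9 of 14 alternative analyses, among them the fit without the animal block (adjusted p = 0.0937) and each fit that left out 1 animal (adjusted p from 0.0561 to 0.13). Crabp1 and Crabp2 differed in change by −0.25 ± 0.54 (SD, n = 4 animals), with p = 0.5 in the exact two-sided sign-flip permutation test and 0.5 after adjustment.

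**Figure D2:**
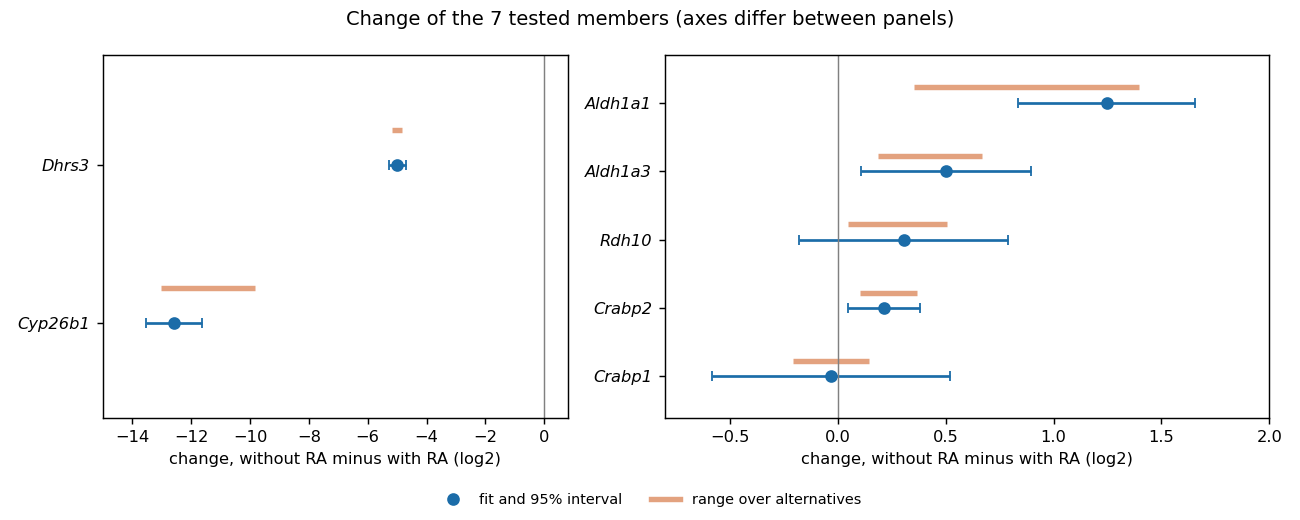
Change without RA minus with RA (log2) of the 7 tested genes, with the fitted value and its 95% interval in blue and the range over the 14 alternative analyses (13 for Rdh10) in orange; the panels have different axes. Cyp26b1 and Dhrs3 lie far below 0 under every alternative, while the interval of Crabp1 runs from −0.58 to 0.52. The interval of Cyp26b1 rests on RA (-) values that lie mostly at background.

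Set against all tested genes, the 7 members took up different places. Dhrs3 and Cyp26b1 lay in the thin lower tail, Cyp26b1 by a fitted value that ends at background, while Crabp1, Crabp2, Rdh10 and Aldh1a3 lay within the bulk of the distribution. Aldh1a1, with its change of 1.25, was among the 1019 genes called higher by at least 1.

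**Figure D3:**
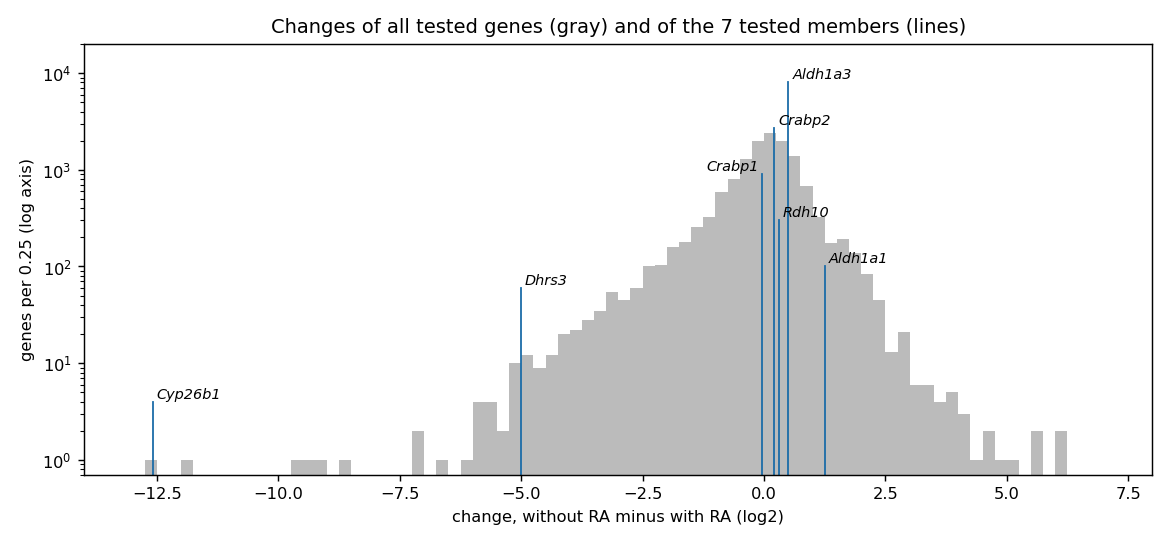
Histogram of the change without RA minus with RA (log2) over all 13548 tested genes in gray (genes per bin of 0.25, log axis), with a blue line at the change of each of the 7 tested members; the heights of the lines only separate the names. Cyp26b1 stands at −12.59 and Dhrs3 at −5.00, in a range that holds few genes.

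Another 55 genes of retinoid handling and signalling were listed by step, 54 of them with a probe. Of these, 31 were tested, 13 were called lower without RA, 8 higher and 10 not called, with a median change of −0.13, and 15 were well above background on no array. The shares called, 13 and 8 of 31, stand beside 28.2% lower and 36.1% higher among all genes. Genes named below beyond those with a called change of at least 1 were chosen after their values were seen.

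Among genes of uptake, transport and storage, 4 of 9 tested were lower and 2 higher, beside 28.2% and 36.1% of all tested genes. Stra6, the membrane receptor that takes up retinol from its plasma carrier, had levels of 2.64, 2.37, 2.80 and 2.48 with RA and 0.54, −0.86, −1.29 and −0.44 without it. The groups did not overlap, and animal 1 kept the highest level without RA. Stra6 was 8.49-fold lower (change −3.09, SE 0.31; limma, Benjamini-Hochberg adjusted p = 0.000505).

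Ttr and Rbp4 encode partners in the blood, where transthyretin carries the complex of retinol and retinol-binding protein, and they moved in opposite directions. Ttr had levels of −2.39, −2.18, −1.08 and −1.89 with RA and −6.62, −6.55, −6.27 and −6.06 without it. No RA (-) array was well above background, so Ttr passed the filter on dim probes through the RA (+) arrays alone. Its fall thus has no exact size, and no p is given for it. Against the lowest signal of probes well above background, the fall was 10.9-fold on the processed intensities, which is no certain minimum. With normexp, which adds an offset to every signal, the change was −1.12, so the size depends on the background correction. Rbp4 rose in each animal, from −2.93, −2.74, −2.70 and −2.22 to −1.13, −0.78, −0.64 and −0.40, and the groups did not overlap. It was 3.75-fold higher (change 1.91, SE 0.08, limma, Benjamini-Hochberg adjusted p = 5.92e-05), and 1.07 on the log2 scale with normexp. Lrp1, an endocytic receptor of lipoprotein remnants, was 2.20-fold lower (change −1.14, SE 0.07; adjusted p = 0.000147), with levels of −0.23 to −0.04 with RA and −1.35 to −1.10 without it. Lpl, which releases fatty acids from lipoproteins, rose by 0.69 (adjusted p = 0.00494).

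**Figure D4:**
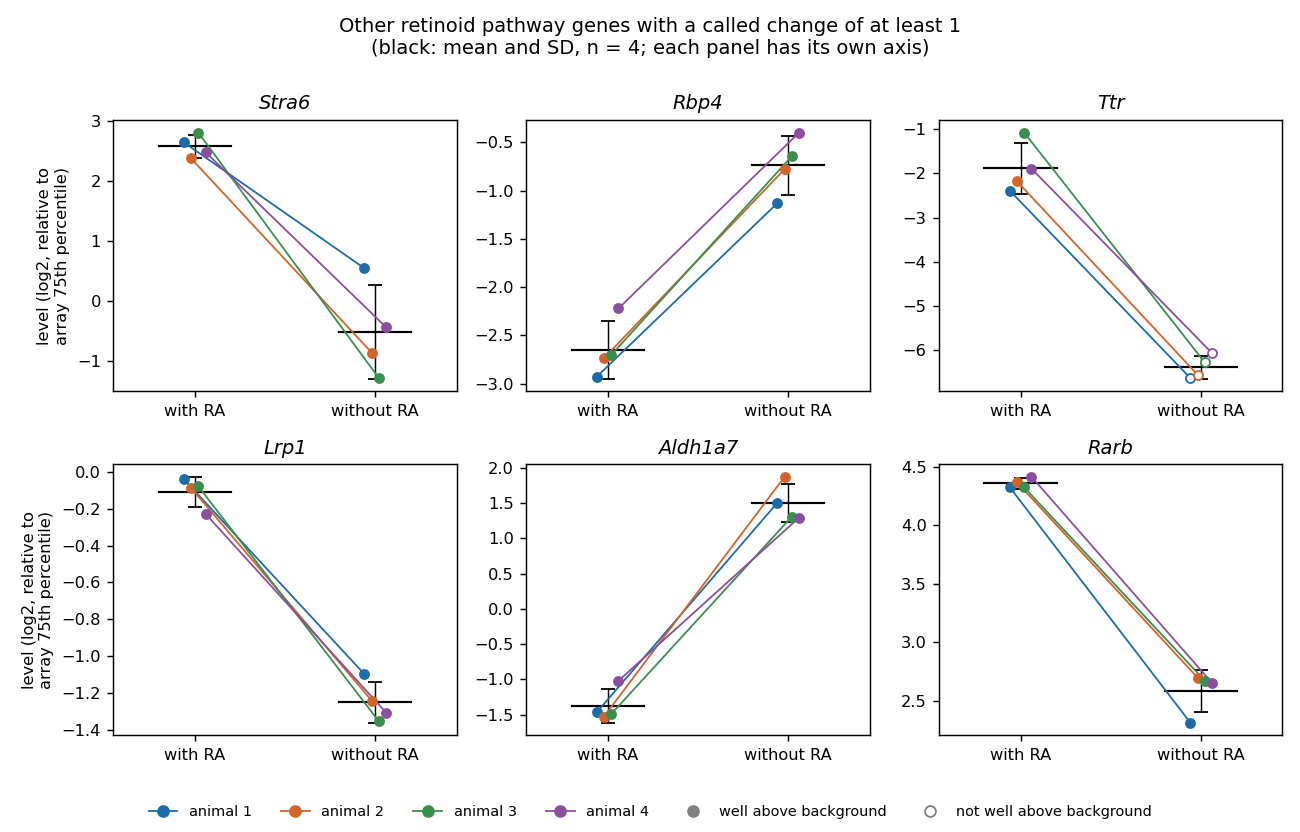
Levels (log2, with the array's 75th percentile as 0) of 6 other pathway genes with a called change of at least 1, by animal and medium, with black bars for mean and SD (n = 4) and open circles for probes not well above background. Stra6, Ttr, Lrp1 and Rarb were lower without RA in all 4 animals, and Rbp4 and Aldh1a7 were higher in all 4.

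The enzymes that interconvert retinol and retinaldehyde showed smaller changes, with 3 of 12 tested genes lower, 4 higher and 5 not called. Among all tested genes 28.2% were lower and 36.1% higher. The retinaldehyde reductases of the aldo-keto reductase family split, as Akr1b3 rose by 0.77 (adjusted p = 0.00179) while Akr1b10 and Akr1b8 had changes of −0.76 and −0.67 (adjusted p = 0.000813 and 0.00319). Rdh1, Dhrs4 and Adh5 rose by 0.55, 0.48 and 0.46, and Rdh13 changed by −0.49. The call of Rdh1 was lost with normexp, where its change was 0.145 (limma, adjusted p = 0.0937). Those of Rdh13 and Akr1b8 were lost with spike-in scaling (adjusted p = 0.298 and 0.0938). None of these enzymes reached the −5.00 of Dhrs3, which acts at the same step. The carotenoid-cleaving enzymes Bco1 and Bco2 were well above background on no array.

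Beside the Aldh1a members, Aldh1a7 showed the largest rise of the pathway. This close paralog of Aldh1a1 had levels of −1.46, −1.52, −1.49 and −1.02 with RA and 1.50, 1.87, 1.31 and 1.29 without it. The groups did not overlap, and Aldh1a7 was 7.29-fold higher (change 2.87, SE 0.18; limma, Benjamini-Hochberg adjusted p = 0.000124). Whether RNA of Aldh1a1 and of Aldh1a7 can bind the probe of the other was not tested. Aldh8a1, a retinal dehydrogenase, had a change of −0.36 (adjusted p = 0.0167), a call lost in 5 of 14 alternatives, among them the fit without the animal block (adjusted p = 0.103) and those without replicate 2 or 4 (adjusted p = 0.062 and 0.054). Among genes of clearance other than Cyp26, Por, the electron donor of microsomal P450 enzymes, was 1.50-fold lower (change −0.59, SE 0.15; adjusted p = 0.0182), a call lost with spike-in scaling (adjusted p = 0.172) and without replicate 4 (adjusted p = 0.0505). Cyp1b1 was well above background on no array.

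Of the receptors, 4 of 5 tested were called lower, beside 28.2% of all genes, and 1 of the 4 calls, that of Rxrg, did not hold in most alternatives. Rarb, the RA receptor beta, had levels of 4.33, 4.37, 4.32 and 4.42 with RA and 2.31, 2.70, 2.67 and 2.65 without it, in groups far apart. It was 3.42-fold lower (change −1.77, SE 0.09; limma, Benjamini-Hochberg adjusted p = 8.31e-05), and −1.86 by its other probe. Rarg changed by −0.68 (adjusted p = 0.00254), or −0.20 with normexp, and its call was lost with spike-in scaling (adjusted p = 0.0914). Rara changed by −0.77 (adjusted p = 0.00477), but the dimmer of the Rara probes gave −0.05 (adjusted p = 0.687 in a fit of single probes). Rxrg was called at −0.29 (adjusted p = 0.0355), with 0.22 by its other probe (adjusted p = 0.481). That call was lost in 8 of 14 alternatives, among them the fit without the animal block (adjusted p = 0.0905) and those without replicate 1, 2 or 4 (adjusted p = 0.0735 to 0.134). Rxrb, at −0.03, was not called. Rxra failed the filter on dim probes. Of the DR5 promoters shown above, that of Rarb belongs to a gene measured on all arrays and lower without RA, and that of Cyp26a1 to a gene at background in both media.

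**Figure D5:**
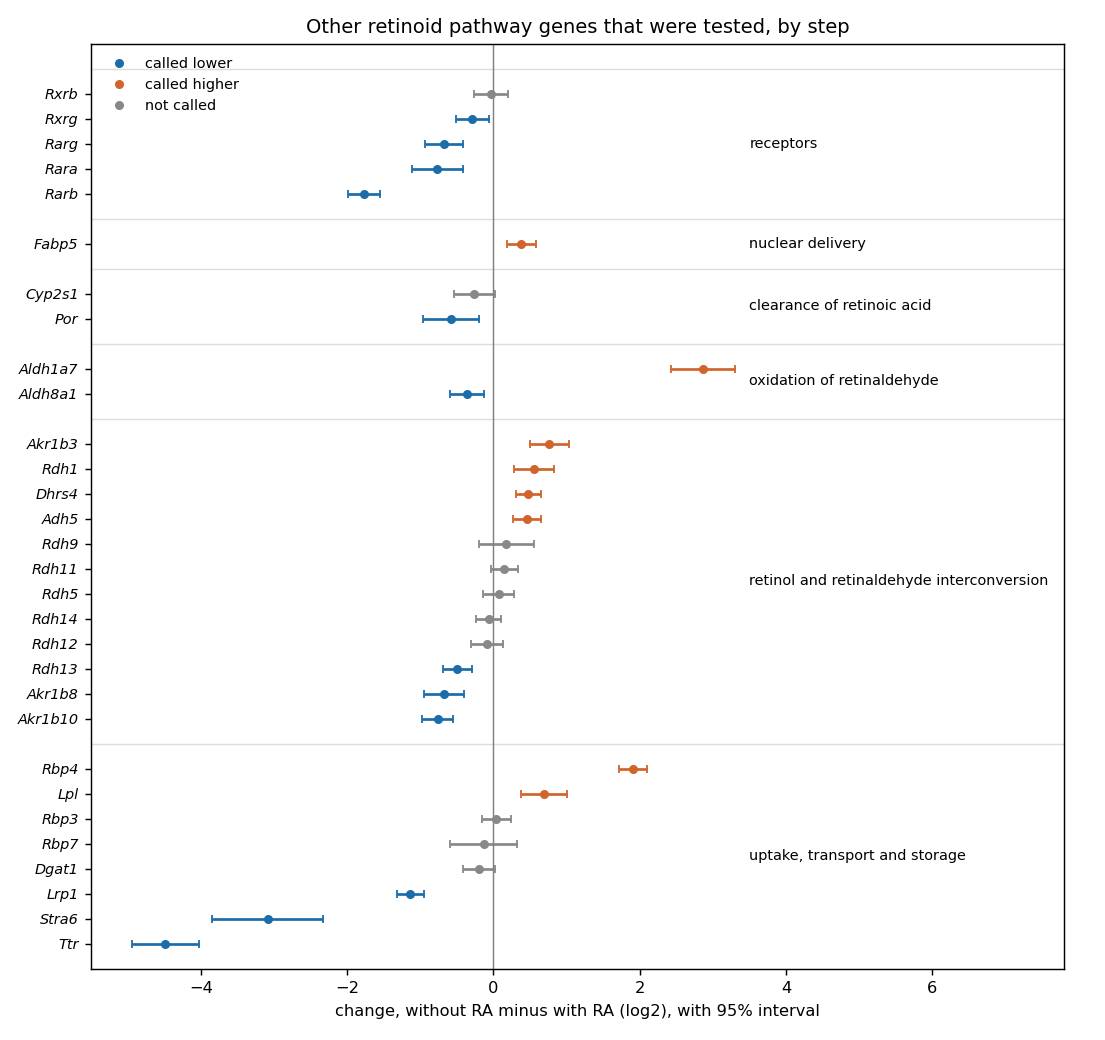
Change without RA minus with RA (log2) with its 95% interval for 30 tested genes of the other pathway steps, grouped by step, with blue for genes called lower, orange for genes called higher and gray for genes not called. Ttr and Stra6 lie farthest to the left, and Aldh1a7 and Rbp4 farthest to the right.

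Markers of the labelled sympathetic cells were present: each array had all 10 sympathetic neuroblast markers well above background, and their summed level was 438 to 528 with RA and 534 to 598 without it. Of the 10, 4 were called higher (Th, Isl1, Slc18a2 and Ddc) and 2 lower (Dbh and Hand2). The sum covers large opposite changes, 3.59 for Th and −1.53 for Dbh. These counts and those of the lists below stand beside 36.1% higher and 28.2% lower among all tested genes. Schwann and satellite glia markers summed to 6.83 to 7.74 with RA and 3.93 to 5.48 without it (1 of 5 tested lower), and Erbb3 was well above background on no array. Immune markers summed to 18.2 to 23.0 and 13.8 to 16.1 (3 of 4 tested lower), with Ptprc well above background on no array. Itgam made up most of that sum and changed by −0.51, or −0.16 by its other probe (adjusted p = 0.239 in a fit of single probes). Adgre1 and Aif1 were well above background on all 4 RA (+) arrays and on no RA (-) array. They were thus tested through the RA (+) arrays alone, and their falls have no exact size. Csf1r changed by 0.02. The sums of fibroblast markers (6.26 to 7.58 and 5.17 to 7.75), endothelial markers (8.10 to 10.1 and 8.05 to 9.44) and adrenal cortex markers (0.56 to 0.71 and 0.68 to 0.81) overlapped between the media. Single markers in them moved all the same: 3 of 5 tested fibroblast markers were called lower (Dcn, Postn and Col3a1) and 1 higher (Col1a2). Dcn was well above background on all 4 RA (+) arrays and on no RA (-) array, so it was tested through the RA (+) arrays alone. In the other lists, 1 of 2 tested endothelial markers was lower and 1 of 3 adrenal cortex markers higher. Of these lists, Pdgfra, Lum, Cdh5, Tek, Cyp11a1, Cyp11b1 and Hsd3b1 were well above background on no array. The part of glial, immune and mesenchymal cells in the changes above was not tested.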

How the data were processed

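Total RNA of 8 sphere samples was labelled with Cy3 from 40 or 200 ng, per the labels, and scanned on 1 slide. The labels do not say which arrays had which amount, so whether it differed between the media is unknown. Per the file headers, Feature Extraction 11.5.1.1 gave the processed intensity of each spot, background-subtracted by that software. The deposited log2 table of the authors followed the same arrays (r of at least 0.9999) and served as an alternative; its centring and direction were settled from the scanner values and its exact scaling was not. Here the log2 intensity minus the 75th percentile of the array was used, without 64 probes with outlier spots, and 27235 probes were named through RefSeq (GRCm38.p6). The brightest probe of each gene was tested in limma 3.58.1 (R 4.3.3), RA (-) minus RA (+), with the animal as a block, after a check on simulated data. The study's design text says that cells of 1 ganglion were divided between the media, and same-numbered arrays deviated together (r 0.52, 0.30, 0.19 and 0.33). Named genes were the 9 members, other pathway genes called with a change of at least 1, Rarb, and the 3 genes closest to Dhrs3. Members and lists were chosen with earlier results of these data known. Of the other pathway genes, 1 that was tested is counted but not reported here by name.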

Additional observations from a re-analysis of the deposited data

Results flagged for a closer look

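Among 16 genes examined by array, 32 groups of 4 arrays were examined for a single array far from its group, and 2 were found; chance gives about 1 in 20. Aldh1a7 on the RA (+) array of animal 4 stood at −1.02 on the log2 scale, above the other 3 RA (+) arrays at −1.52 to −1.46, and still below every RA (-) array. Rarb on the RA (-) array of animal 1 stood at 2.31, below the other 3 RA (-) arrays at 2.65 to 2.70. The same RA (-) array lay nearest to the RA (+) arrays on the first principal component of all tested genes (42.3, against 59.5 to 66.2 for the other RA (-) arrays and −61.3 to −52.3 for the RA (+) arrays).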

How the results depend on the processing

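Cyp26b1, Dhrs3 and Aldh1a1 kept their direction and their call in all 14 alternatives. Members called lower stayed at 2 throughout. Members called higher, 3 in the report, were 1 without the replicate block, 1 with scaling to the 75th percentile of detected probes, and 1 to 2 when 1 replicate was left out. Without the replicate block 8029 of all genes were called, against 8714 with it, and 7358 to 8253 when 1 replicate was left out. Scaling to spike-ins gave 5469 calls over all genes and 7 other pathway genes called lower in place of 13. It moved the median change of all genes to 0.22. With that scaling the fit gave all the retinoid genes the same SE, 0.26, so their calls followed the size of the change alone. Fabp5, called higher at 0.38, turned to −0.043 with normexp and to −0.058 with quantile normalization of the processed signal. Normexp was run on the median signal, an alternative chosen after seeing the data. The slide and the scan were the same for all arrays, so no such block was run. The amount of labelled RNA is not given by array, so no block for it could be run. Rdh10 had no value under the stricter filter on dim probes. Signal over background limits Cyp26a1, Aldh1a2, Rdh10 and the sizes of the Cyp26b1 and Aldh1a1 changes, and the number of arrays limits the precision.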
